A study of Homo sapiens with 2 samples.

Results

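The caspases and the apoptosome are the proteases of programmed cell death and the platform that switches one of them on. The group holds 8 genes of the 23033 with a value in the deposited table, taken by their current symbols and Entrez gene IDs. They are CASP2, CASP4, CASP6, CASP8, CASP9, CASP10, APAF1 and CYCS, and all 8 were found. RNAseq was performed in 1 library of control cells (genotype WT) and 1 library of FZR1 ko cells. Both were treated with cisplatin, a platinum drug that cross-links DNA, at 2 µg/ml according to the labels, for a time that is not given for this experiment. The FZR1 protein helps the anaphase-promoting complex to pick cell cycle proteins for degradation. The knockout T-47D line was made with CRISPR/Cas9 delivered by lentivirus, puromycin selection and single-cell cloning, so it may stand for 1 clone. Cells without cisplatin were not analysed here.

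Caspases are cysteine proteases that are made as inactive precursors and cut their targets after aspartate. Initiator caspases are brought together on adaptor platforms, and executioner caspases are then cut and take the cell apart. In the mitochondrial route, which DNA damage uses, cytochrome c leaves the mitochondria and binds APAF1, and APAF1 assembles into the apoptosome that activates caspase-9. In the death receptor route, caspase-8 and caspase-10 are recruited by FADD. Activation takes place on the protein, so an mRNA level gives the supply of precursor and not the activity.

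The values are FPKM, fragments per kilobase of transcript and scaled to the mapped fragments of the library, so levels of different genes can be set side by side. Differences are log2 ratios of FPKM + 1, FZR1 ko over control, for the 13554 genes of at least 1 FPKM in at least 1 library. With 1 library per condition there is no replicate error, no test was possible and no p-value is given. FPKM keeps no read number, so the depth behind a value is unknown. FZR1 itself had 12.3 FPKM in control against 10.1 in FZR1 ko, and since Cas9 edits need not lower an mRNA, this does not check the labels. Both libraries carry the label T-47D, a luminal breast cancer line, but 5 of 9 luminal markers were under 1 FPKM in both libraries. ESR1 had 0.04 and 0.13 FPKM in control and FZR1 ko, and PGR had 0.01 FPKM and was listed at 0. GATA3 had 0.31 and 0.15 FPKM, CDH1 0.69 and 0.62, and KRT19 0.20 and 0.16. The 9 luminal markers summed to 1392 FPKM in control against 1756 in FZR1 ko, most of it KRT8 and KRT18. The 7 basal and mesenchymal markers, most of it VIM and KRT17, summed to 429.8 and 376.3 FPKM. KRT8 had 829 and 998 FPKM, KRT18 552 and 740, VIM 315 and 295, and KRT17 103 and 55.8. The sums rest mostly on these genes and do not settle the cell type. At least 2-fold higher in FZR1 ko were 1 of the 4 luminal and 1 of the 5 basal and mesenchymal markers that reached 1 FPKM in a library, against 6.78% of all genes. These were EPCAM, with 3.90 and 11.5 FPKM (log2 ratio 1.35), and CDH2, with 2.97 and 15.3 FPKM (2.04). The part of the mismatch with the label, and of these marker differences, in the results was not tested.

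The promoters of CYCS and CASP9 are shown first, as these genes had the lowest and the highest log2 ratio of FPKM + 1 in the group. With a pseudocount of 0.1 FPKM or none, CASP10 and not CYCS was the lowest. That of CASP4, the caspase of the group with the most mRNA, is shown beside them. Each is the 250 bases before the start of the main transcript, from RefSeq on GRCh38.p14 (hg38), 5′ to 3′ on the strand of the gene. Capitals mark matches, on either strand, to a core NRF1 motif (GCGCATGC), the CCAAT box (CCAAT), a GC box (GGGGCGGGG), an AP-1 motif (TGANTCA), the p53 half-site and the TATA box (TATAAA). They lie at chr7:25125261-25125510 on the minus strand (CYCS), chr1:15524216-15524465 on the minus strand (CASP9) and chr11:104968575-104968824 on the minus strand (CASP4).
CYCS: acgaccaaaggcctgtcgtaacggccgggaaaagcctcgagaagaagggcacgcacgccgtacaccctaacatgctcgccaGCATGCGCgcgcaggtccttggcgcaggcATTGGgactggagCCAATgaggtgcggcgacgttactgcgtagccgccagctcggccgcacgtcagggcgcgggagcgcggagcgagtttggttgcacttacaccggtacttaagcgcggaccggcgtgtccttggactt
CASP9: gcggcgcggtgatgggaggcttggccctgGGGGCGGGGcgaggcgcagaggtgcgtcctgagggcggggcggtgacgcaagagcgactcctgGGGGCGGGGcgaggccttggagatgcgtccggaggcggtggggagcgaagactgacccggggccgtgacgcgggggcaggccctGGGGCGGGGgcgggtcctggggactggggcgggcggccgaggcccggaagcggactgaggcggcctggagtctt
CASP4: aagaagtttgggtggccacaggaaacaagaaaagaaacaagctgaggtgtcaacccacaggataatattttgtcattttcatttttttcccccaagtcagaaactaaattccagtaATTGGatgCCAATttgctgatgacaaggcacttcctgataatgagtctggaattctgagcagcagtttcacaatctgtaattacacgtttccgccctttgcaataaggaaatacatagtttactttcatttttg

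The promoters of the group were of different kinds. Of the 7 members with a promoter in the RefSeq table, 5 were rich in CpG, with 38 CpG in APAF1, 31 in CYCS, 29 each in CASP2 and CASP9 and 26 in CASP6, against a median of 11 over 34796 promoters. CASP4 had 2 CpG and 38.0% GC, and CASP8 had 5 CpG. CYCS was the only one of the 7 with the NRF1 core, 169 bases before the start, and 2.57% of all promoters hold it. NRF1 is a regulator of nuclear genes for mitochondrial proteins. CASP9 held the GC box at 3 places, as marked in its sequence, and CASP2 and CASP6 also held it, against 15.1% of all promoters. The CCAAT box was found in CYCS, CASP2, CASP4 and APAF1, and in 32.0% of all promoters. The AP-1 motif was found in CASP8 alone, 61 bases before its start, and in 6.59% of all promoters. None of the 7 windows held the TATA box (10.8% of all promoters) or the p53 half-site (5.59%). A match to letters is a description and does not show that a factor binds there.

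Under cisplatin, none of the 8 genes was 2-fold lower or 2-fold higher in FZR1 ko than in control. Of all 13554 genes, 13.5% did, 6.72% with the lower and 6.78% with the higher value in FZR1 ko. The share was 12.1% among protein-coding genes and 9.69% where both libraries reached 2 FPKM, a level that all 8 members reached. In FZR1 ko 5 of the 8 genes had the lower value and 3 the higher, against 50.3% of all genes lower and 49.6% higher, with log2 ratios from -0.64 to 0.45. The median log2 ratio was -0.20 over the group and -0.0048 over all genes. Regardless of direction, the median size of the log2 ratio was 0.40 over the group and 0.42 over all genes. At 1.5-fold, 1 of the 8 genes, CYCS, passed, against 35.6% of all genes. CASP10 also passed 1.5-fold with a pseudocount of 0.1 FPKM, which made 2 of 8 against 43% of all genes. The same 2 passed without a pseudocount, against 35.2% of all genes that reached 2 FPKM in each library.

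**Figure D1:**
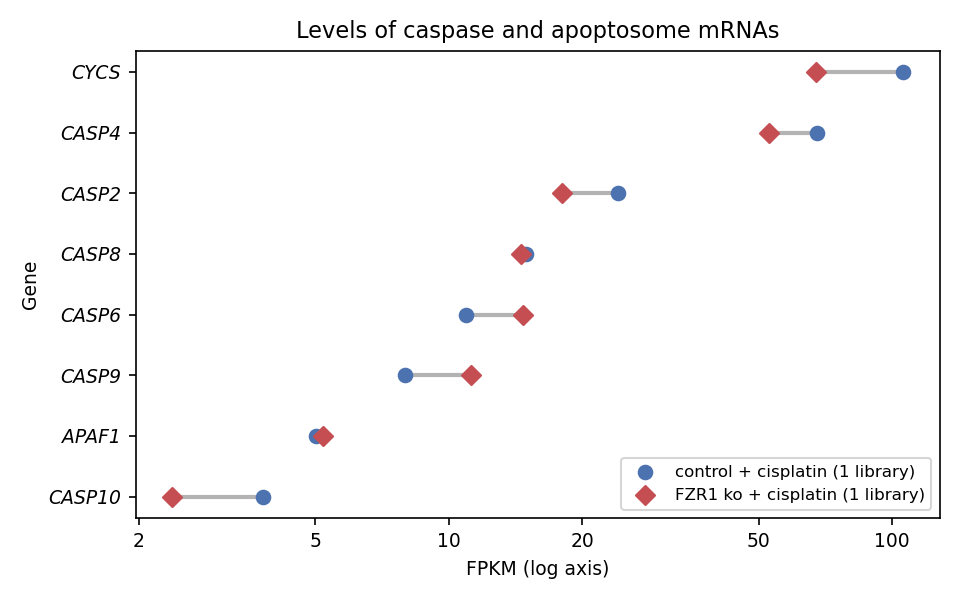
FPKM on a log axis of the 8 genes in the control library (circles) and the FZR1 ko library (diamonds), 1 library each, both with cisplatin. CYCS and CASP4 lie above 50 FPKM in both libraries, CASP10 is the lowest in both, and no pair of points is as much as 2-fold apart.

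The apoptosome genes themselves were uneven in level. CYCS (Entrez gene 54205, minus strand of chromosome 7 from 25118656 to 25125260 in GENCODE 44), which encodes cytochrome c, the electron carrier whose release starts apoptosome assembly, had 106 FPKM in control against 67.5 in FZR1 ko. The log2 ratio of -0.64 was the largest in size of the group on the scale of FPKM + 1. Without a pseudocount the level was 1.57-fold lower in FZR1 ko, a smaller fold than the 1.61 of CASP10. CYCS was also the gene of the group with the highest level in each library, ahead of 93.9% of the genes kept in control and of 90.3% in FZR1 ko. Of all genes kept, 31.3% differed by more than CYCS did. RefSeq lists 45 processed or other copies of CYCS named as its pseudogenes, of which 1, CYCSP52, has a value in the table, 0.44 FPKM in control against 0.59 in FZR1 ko. Reads that such copies share with CYCS may make its level uncertain, and such sharing was not measured.

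APAF1 (Entrez gene 317, plus strand of chromosome 12 from 98645290 to 98735433), the scaffold of the apoptosome, had 5.03 FPKM in control against 5.22 in FZR1 ko, a log2 ratio of 0.045. Of all genes kept, 93.7% differed by more. CYCS mRNA thus stood 21.1 times above APAF1 mRNA in control and 12.9 times above it in FZR1 ko. Of the 7759 annotated exon bases of APAF1, 750 (9.67%) overlap exons of ANKS1B on the other strand, and ANKS1B was listed at 0 in control and had 0.02 FPKM in FZR1 ko. HCCS, the enzyme that attaches heme to cytochrome c, had 35.1 and 23.9 FPKM, and the ratio of CYCS to HCCS was 3.02 in control and 2.82 in FZR1 ko.

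CASP9 (Entrez gene 842, minus strand of chromosome 1 from 15490832 to 15526534), the initiator caspase that the apoptosome activates, had 7.97 FPKM in control against 11.2 in FZR1 ko. Its log2 ratio of 0.45 was the highest of the group, and 47.5% of all genes kept differed by more. Without a pseudocount its level was 1.41-fold higher in FZR1 ko. CASP9 and CYCS therefore differed in opposite directions, with the scaffold APAF1 between them. CASP9 mRNA was 1.58 times APAF1 mRNA in control and 2.15 times in FZR1 ko. XIAP, which binds and inhibits caspase-9, had 5.58 and 4.77 FPKM, so its ratio to CASP9 was 0.70 in control and 0.42 in FZR1 ko.

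**Figure D2:**
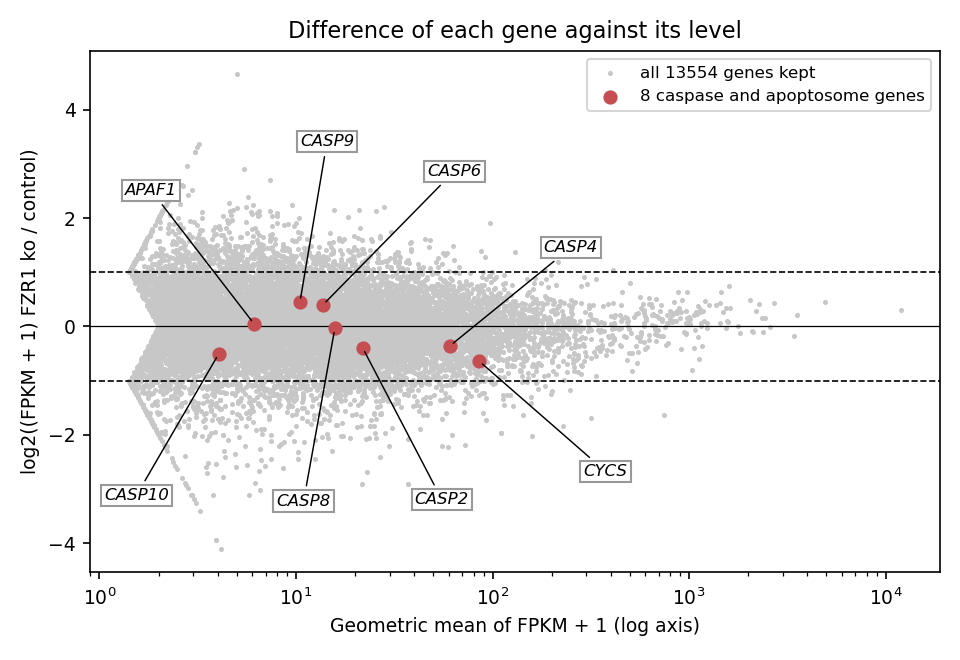
Log2 ratio of each of the 13554 genes kept (grey) against the geometric mean of its FPKM + 1 in both libraries (log axis), with the 8 genes labelled in red and dashed lines at 2-fold. The 8 genes lie between -0.64 and 0.45, inside the dashed lines, over a wide range of levels.

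The initiator caspases of the death receptor route lie next to each other on the plus strand of chromosome 2. CASP8 (Entrez gene 841, from 201233443 to 201361836) had 15.0 FPKM in control against 14.6 in FZR1 ko. Its log2 ratio was -0.038, the smallest in size of the group, and scaling FZR1 ko to the upper quartile of control turned it to 0.012. CASP10 (Entrez gene 843, from 201182872 to 201229428), a close relative of CASP8, had 3.82 FPKM in control against 2.38 in FZR1 ko, with a log2 ratio of -0.51. It was the lowest gene of the group in each library, so the pseudocount weighs most on it, and without one its level was 1.61-fold lower in FZR1 ko. CASP8 mRNA was 3.92 times CASP10 mRNA in control and 6.11 times in FZR1 ko. CFLAR, the next gene on the other side of CASP10, encodes a caspase-8-like protein without protease activity that restrains caspase-8. It had 25.1 and 21.7 FPKM, 1.67 times CASP8 mRNA in control and 1.49 times in FZR1 ko. FADD, the adaptor that recruits both caspases, had 46.1 and 38.0 FPKM.

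CASP2 (Entrez gene 835, plus strand of chromosome 7 from 143288215 to 143307696) encodes an initiator caspase that is activated on the PIDDosome, a platform of PIDD1 and CRADD. CASP2 had 24.1 FPKM in control against 18.0 in FZR1 ko, with a log2 ratio of -0.40. PIDD1 had 28.4 and 18.9 FPKM, while CRADD had 1.58 and 2.99 FPKM. The PIDD1 level was thus 18.0 times that of CRADD in control and 6.32 times in FZR1 ko. These ratios take no pseudocount and rest on the low CRADD level. With the pseudocount the log2 ratios were -0.56 for PIDD1 and 0.63 for CRADD. None of these 3 genes passed 2-fold on the log2(FPKM + 1) scale.

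CASP6 (Entrez gene 839, minus strand of chromosome 4 from 109688622 to 109703583), an executioner caspase that cuts nuclear lamins, had 10.9 FPKM in control against 14.7 in FZR1 ko. Its log2 ratio was 0.40, and with CASP9 it was 1 of the 2 caspases of the group above 0. The ratio of CASP6 to CASP9 mRNA was 1.37 in control and 1.31 in FZR1 ko. Exons of MCUB on the other strand overlap 98 (5.04%) of the exon bases of CASP6, and the strand setting of the counting is not given in the sources used here. Exons of CELA2B on the other strand overlap 101 (1.92%) of those of CASP9, and CELA2B was at or below 0.06 FPKM. A long noncoding RNA on the same strand as CASP8 overlaps 343 (4.74%) of its exon bases, so reads there cannot be told apart by strand.

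CASP4 (Entrez gene 837, minus strand of chromosome 11 from 104942866 to 104969366) encodes an inflammatory caspase that senses bacterial lipopolysaccharide in the cytosol and cuts gasdermin D. CASP4 had 67.8 FPKM in control against 52.7 in FZR1 ko, with a log2 ratio of -0.36. It alone made up 52.3% of the summed FPKM of the 6 caspases in control and 46.4% in FZR1 ko. CASP2 followed with 18.6% and 15.9%, and CASP10 was last with 2.95% and 2.10%. The shares of CASP9 were 6.15% and 9.89%, and those of CASP6 were 8.45% and 13.0%. The sum over the 6 caspases was 129.6 FPKM in control against 113.6 in FZR1 ko, a log2 ratio of -0.19. The order of the 8 levels was CYCS, CASP4, CASP2, CASP8, CASP6, CASP9, APAF1 and CASP10 in control. In FZR1 ko CASP6 and CASP8 changed places, at 14.7 and 14.6 FPKM. Which neighbours in this order differ beyond their spread cannot be said with 1 library each.

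CASP4 lies in a cluster of inflammatory caspase genes on chromosome 11. CASP1, the caspase that matures interleukin-1β, had 7.94 and 16.2 FPKM, with a log2 ratio of 0.94, so it stayed under 2-fold, and without a pseudocount its level was 2.04-fold higher. The ratio of CASP4 to CASP1 mRNA was 8.54 in control and 3.25 in FZR1 ko. CASP5, between CASP4 and CASP1, had 0.25 and 0.72 FPKM. CARD16, a gene of the same cluster that shares much of its sequence with the start of CASP1, had 26.9 and 24.8 FPKM, so reads may be split between both. The only pseudogene of CASP4 with a value, CASP4LP, had 0.20 and 0.10 FPKM.

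**Figure D3:**
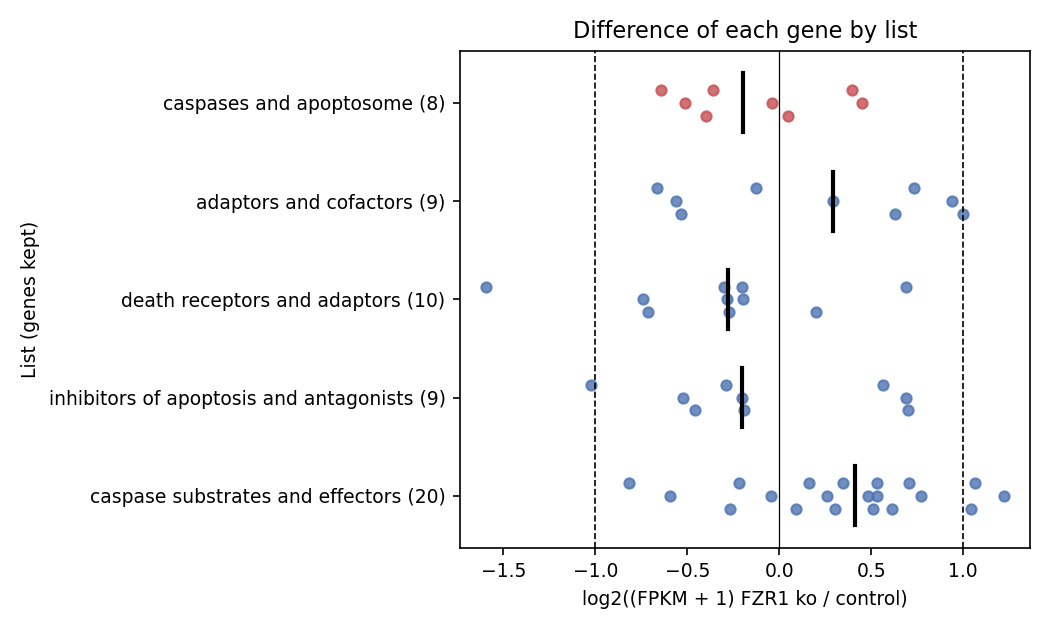
Log2 ratio of every gene kept in the caspase and apoptosome group (red) and in 4 further lists of the same pathway (blue), 1 point per gene, spread vertically only to be seen, with the median of each list as a black bar and dashed lines at 2-fold. Past the lines lie 1 death receptor, 1 inhibitor of apoptosis and 3 caspase substrates or effectors, and none of the 8 genes.

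Upstream of the caspases, 1 of the 10 death receptors and adaptors was at least 2-fold lower in FZR1 ko and none was 2-fold higher, near the 6.72% of all genes that were 2-fold lower and the 13.5% past 2-fold either way. It was FAS, a death receptor gene, with 5.04 FPKM in control against 1 in FZR1 ko (log2 ratio -1.59), and it did not pass with a pseudocount of 5 FPKM. TNFRSF10B, the TRAIL receptor DR5, had 42.1 and 24.8 FPKM (-0.74). The list had 8 genes lower and 2 higher, where 50.3% of all genes were lower, and a median of -0.28. Of the 9 adaptors and cofactors of caspases kept, none passed 2-fold, 4 were lower and 5 were higher, and the median was 0.29. Without a pseudocount, over the 7 that reached 2 FPKM in both libraries, the median was -0.15. ANP32A passed after centring, with either scaling, and with a pseudocount of 0.1 FPKM or none. ANP32A, which promotes apoptosome activity in cell extracts, had 33.7 and 68.1 FPKM (0.997, just under the threshold), and CSE1L, also named as such a factor, had 67.9 and 131 FPKM (0.94).

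Among the 9 inhibitors of apoptosis and their antagonists kept, 6 were lower and 3 higher, where 50.3% of all genes were lower, with a median of -0.20, the same to 2 decimals as in the caspase and apoptosome group. BIRC2, which encodes cIAP1, a ubiquitin ligase of the TNF receptor complex, was 2-fold lower in FZR1 ko, with 39.7 and 19.1 FPKM (-1.02). It no longer passed with upper quartile scaling or a pseudocount of 5 FPKM, and no gene of the list was 2-fold higher. This 1 of 9 genes is near the 13.5% of all genes past 2-fold either way and the 6.72% at least 2-fold lower. BIRC7 had 12.4 and 20.8 FPKM (0.70). DIABLO, which displaces XIAP from caspases, had 39.8 and 28.7 FPKM, or 7.13 times XIAP mRNA in control and 6.01 times in FZR1 ko.

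Downstream, the list of caspase substrates and effectors went the other way, with 15 of 20 genes higher and 5 lower in FZR1 ko, where 49.6% of all genes were higher, and a median of 0.41. Of these, 3 were at least 2-fold higher and none was 2-fold lower, and 3 of 20 is near the background of 13.5%. With a pseudocount of 5 FPKM 0 passed. LMNB1, the lamin B1 gene, had 22.9 and 48.2 FPKM (1.04). ATP11A, a phospholipid flippase that caspases inactivate, had 3.80 and 10.2 FPKM (1.22). IL18, whose precursor caspase-1 and caspase-4 can cut, had 24.3 and 51.9 FPKM (1.06). GSDMD, the gasdermin cut by caspase-4, had 8.87 and 11.2 FPKM (0.30), and DFFA, which encodes the inhibitor of the apoptotic nuclease, had 43.2 and 46.0 FPKM (0.090). How these lists differ from the caspase and apoptosome genes was not tested.

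The nearest protein-coding genes on either side of the members, in the order of gene starts in RefSeq, were also read. Of 14 such neighbours outside the group, 7 had at least 1 FPKM in a library and 7 stayed at or below 0.72 FPKM in both (CLCN1, DDI1, CASP5, FLACC1, CELA2B, ANKS1B and SPMIP4). TMEM139, 301 bases before CASP2, had 3.72 FPKM in control against 16.4 in FZR1 ko (log2 ratio 1.88), against -0.40 for CASP2. MCUB, which overlaps CASP6, had 3.39 and 8.66 FPKM (1.14). OSBPL3, the neighbour of CYCS but 136810 bases away, had 3.32 and 10.7 FPKM (1.44). PLA2G12A, on the other side of CASP6, had 5.75 and 9.47 FPKM (0.63). IKBIP, next to APAF1, had 32.6 and 35.0 FPKM (0.10), and DNAJC16, next to CASP9, had 3.22 and 3.12 FPKM (-0.035). Of the 7 neighbours kept, 3 were thus at least 2-fold higher and 0 at least 2-fold lower in FZR1 ko, against 6.78% and 6.72% of all genes. With 7 genes and 1 library per condition, whether neighbours differ from other genes was not tested.

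**Figure D4:**
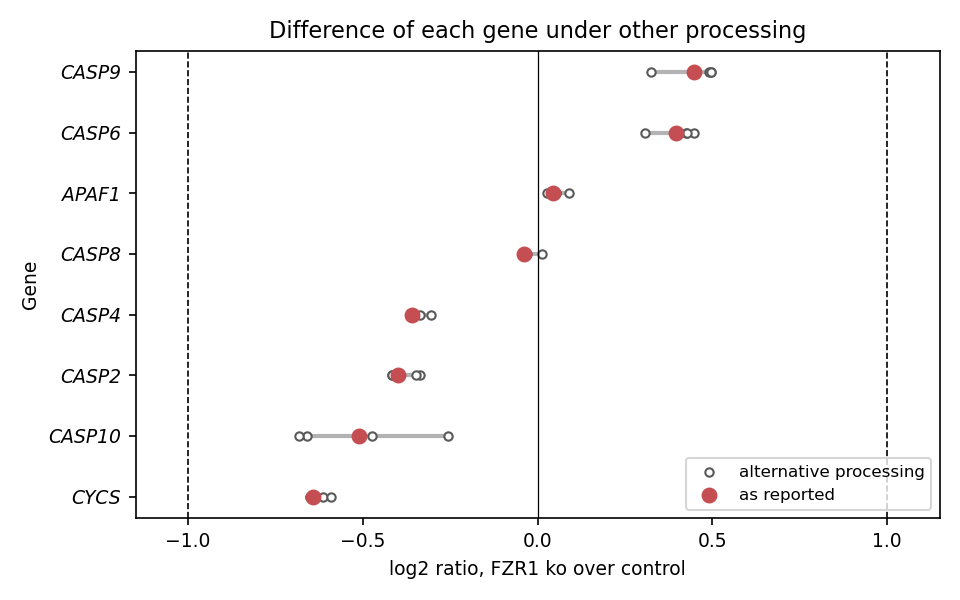
Log2 ratio of each of the 8 genes as reported (red) and under the 6 alternatives that can move it (open circles), with dashed lines at 2-fold. Every value stays between the lines, CASP10 spreads most, from -0.68 to -0.26, and CASP8 lies on both sides of 0.

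The plot of alternatives covers other pseudocounts, centring and scalings of FPKM, and leaves out filters on genes, which keep the ratio of a single gene as it is. Of the 48 values, 0 passed 2-fold. CYCS ranged from -0.65 to -0.59, CASP9 from 0.32 to 0.50 and CASP6 from 0.31 to 0.45. CASP2 stayed between -0.42 and -0.34, CASP4 between -0.36 and -0.31, and APAF1 between 0.027 and 0.090. CASP8 changed sign under 1 alternative, and none of the other 7 genes did.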

How the data were processed

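Total RNA of 1 control and 1 FZR1 ko library, both labelled T-47D and treated with 2 µg/ml cisplatin, was run on a BGISEQ-500 sequencer. The authors aligned reads to the transcriptome with Bowtie2 (2.2.5 per the submitters' processing notes, while the methods give another version) and RSEM on hg38. The notes also name Trimmomatic 0.36 and HISAT2 2.1.0. The deposited values are FPKM per Entrez gene ID, to 2 decimals. Of 24663 rows, 1630 have no value. Of the 23033 others, 22925 matched a symbol in the RefSeq table of GRCh38.p14. The table has 0 further value columns. The annotation version, strand setting and depth are not given in the sources used here. The annotation behind the FPKM can move genes with many isoforms.

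Log2((FPKM + 1) ratios) were computed for genes of at least 1 FPKM in at least 1 library, and counted at 2-fold. There are no replicates, so no difference was tested. The computation was run on simulated data with known changes well past the threshold, which checks the code only and not the differences reported here. The 8 genes and all lists were chosen with earlier results of these data known. Named genes are the 8 members, genes of the 4 pathway lists past 2-fold or the 2 with the largest log2 ratio in a list, nearest protein-coding neighbours and pseudogenes. The cell line markers, CASP1, CARD16, and genes named as binding partners of a member (HCCS, XIAP, CFLAR, FADD, PIDD1, CRADD, DIABLO, GSDMD and DFFA) were named after their values were seen. A further list of caspases is not reported here. Printed gene spans and exon overlaps are from GENCODE 44 on hg38. Neighbours were taken by RefSeq gene starts on GRCh38.p14, whose spans can differ from those of GENCODE. Promoter windows are those nearest the start of the main GENCODE transcript. Python 3.11.15, numpy 2.4.6, pandas 2.3.3 and matplotlib 3.10.9 were used.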

Additional observations from a re-analysis of the deposited data

How the results depend on the processing

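No paired analysis was possible because the design has no replicates, and for the same reason no replicate was left out. The settings without a pseudocount, and those that join 1.5-fold to another pseudocount, were chosen after seeing the data. In the caspase and apoptosome group 0 of 8 genes passed 2-fold under each scaling, centring and pseudocount tried. At 1.5-fold 1 passed, or 2 with a pseudocount of 0.1 FPKM or none. Its median stayed between -0.20 and -0.14. The largest shift of the median of all genes, to 0.044, came from upper quartile scaling. With a pseudocount of 0.1 FPKM, 1 adaptor or cofactor and 2818 of all genes passed 2-fold. With a pseudocount of 5 FPKM, 453 of all genes passed, and 0 genes each of the death receptor, inhibitor and substrate lists did. The medians were then 0.19 for adaptors and cofactors and 0.28 for substrates. Without a filter the median was 0.15 for adaptors and cofactors, as a gene listed at 0 entered. Centring, scaling to the sum and scaling to the upper quartile each brought 1 of 9 adaptors and cofactors past 2-fold. The last left 0 of 9 inhibitors. Of all genes, 1827, 1831 and 1865 passed in turn. At 4-fold 150 of all genes passed, and 0 in the death receptor, inhibitor and substrate lists. At 1.5-fold 4827 of 13554 genes (35.6%) passed. Past it were 5 of 9 adaptors and cofactors, 4 of 10 death receptors and adaptors, 3 of 9 inhibitors and 8 of 20 substrates. Without a pseudocount, at 2 FPKM or more in both libraries, 1357 of 10588 genes passed 2-fold. Of the lists, 1 of 7 adaptors and cofactors and 0 of 9 death receptors and adaptors did. FAS, at 1 FPKM in FZR1 ko, was left out by that filter, and its level was 5.04-fold lower. The medians were -0.15 for adaptors and cofactors and 0.54 for substrates. The sign change of the adaptor median came with 7 in place of 9 genes. A smaller pseudocount or threshold passes more genes by construction, and the cause of the other moves was not tested. As the depth is unknown, its limit on each gene could not be given.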
